A study of Solanum lycopersicum with 6 samples.

Results

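The genes described here are the histidine decarboxylase rows of tomato chromosome 8, the rows of the deposited table whose symbol is HDC or whose description names histidine decarboxylase and whose identifier begins with Solyc08g066. There were 5 of them among 36224 rows, Solyc08g066220.3, Solyc08g066240.3, Solyc08g066245.1, Solyc08g066250.3 and Solyc08g066260.3, and they follow each other in identifier order with 1 row at 0 counts in every library (Solyc08g066230.1) between the first and the second. RNA was sequenced from fruit wall (pericarp) of the tomato cultivar Ailsa Craig, 37 days after anthesis. There were 3 libraries of transgenic fruit made to overexpress SlJMJ6, a histone demethylase (JMJ6-OE), and 3 of wild-type fruit (WT), both genotypes in the Ailsa Craig background and grown in the same greenhouse conditions. The sources used here give neither the promoter that drives the transgene nor the plants and lines behind each replicate, and the p-values therefore describe library-to-library spread, which may be technical. Solyc08g066240.3 and Solyc08g066245.1 were picked because of their difference between JMJ6-OE and WT, so the values of the 5 rows in that contrast are a description and carry no test.

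Histidine decarboxylase removes the carboxyl group of histidine to give histamine, an amine that is known to occur in tomato fruit. It belongs to a family of decarboxylases that use pyridoxal phosphate (vitamin B6) as cofactor, and plant genes of this family are often named by likeness alone. The family also holds the serine decarboxylase of plants and the tomato aromatic amino acid decarboxylases, which act on phenylalanine in the path to the floral volatile phenylethanol. What the 5 proteins act on was not measured here. The deposited table places the 5 rows in phenylalanine metabolism and not in histidine metabolism.

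The RefSeq gene table used for names (assembly SLM_r2.1) has 1 tomato gene with the symbol hdc, on chromosome 8, with the synonym TOM92. In that table a profilin gene stands 11 genes before hdc and the cyclin-dependent kinase gene CDKA1 (cdc2A-1) stands 11 genes after it. In the deposited table a profilin row (Solyc08g066110.3) stands 13 rows before Solyc08g066240.3 and a cdc2A-1 row (Solyc08g066330.2) 9 rows after it. The tables do not pair their identifiers, so which of the 5 rows is the RefSeq hdc gene is not settled here.

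Library totals ran from 28539410 to 36487547 counts, and a floor of 3 counts was 0.0752 to 0.111 CPM (counts scaled to a common library size by TMM). The only row on chromosome 6 described as a JmjC demethylase, Solyc06g008490.3, was taken as JMJ6 because RefSeq places JMJ6 on chromosome 6. This match is uncertain, since the deposited table gives the row the symbol JMJ703 and describes it as putative lysine-specific demethylase JMJ16. The row stood at 31.5, 37.4 and 41.3 CPM in JMJ6-OE, against 27.0, 23.5 and 25.5 CPM in WT. Its log2 fold change was 0.54 ± 0.12 (SE, adjusted p = 0.014 by edgeR's quasi-likelihood test), with the call lost without JMJ6-OE replicate 2 (0.055) or WT replicate 2 (0.054). Of 20143 genes tested by edgeR, 17.5% were called higher in JMJ6-OE and 16.8% lower, at an adjusted p of 0.05. Leaving out JMJ6-OE replicate 2 cut these counts from 3517 higher and 3394 lower genes to 2027 and 2046, and leaving out WT replicate 2 cut the higher genes to 2296. The 4 genes taken as fruit pericarp markers (TAGL1, the AGL8 homologs FUL1 and FUL2, and the expansin gene EXP1) had transcripts in every library. Their summed levels were 854 to 1519.8 CPM in JMJ6-OE and 314 to 349.8 CPM in WT. EdgeR called 3 of them higher, EXP1 (13.6-fold), FUL1 (5.31-fold) and TAGL1 (1.79-fold), while FUL2 was not called (1.13-fold). The sum is therefore not read as an amount of pericarp. Whether these rises go with ripening stage was not tested.

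All 5 HDC rows had more counts in JMJ6-OE than in WT, in every library. In bulk tissue, fewer cells of a kind and less RNA per cell cannot be told apart. Solyc08g066240.3 carried most of the counts. It had 40296, 64855 and 58494 counts in the JMJ6-OE libraries, against 392, 440 and 325 counts in the WT libraries. On the scaled level this was 1249, 1928 and 2169 CPM in JMJ6-OE and 13.3, 11 and 8.37 CPM in WT. The lowest JMJ6-OE library, replicate 1, thus stood far above the highest WT library, and the WT libraries were close to each other. The fitted difference was 164-fold, a log2 fold change of 7.36 ± 0.32 (SE), and it ran from 7.16 to 7.56 when each library was left out in turn.

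**Figure D1:**
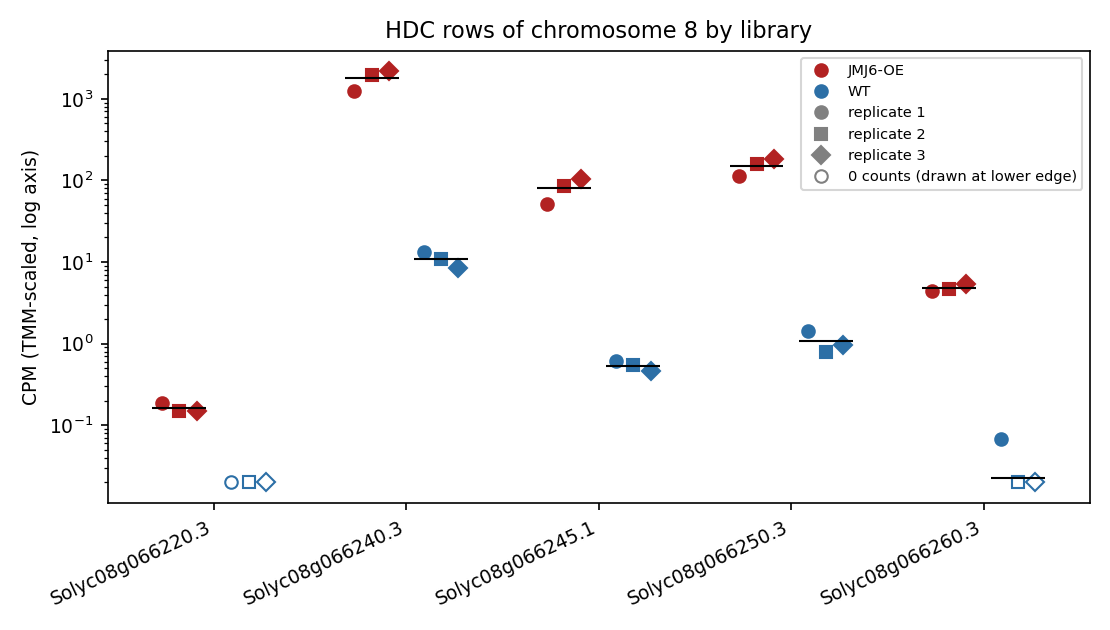
CPM of the 5 HDC rows in each library on a log axis, JMJ6-OE in red left of WT in blue, with marker shapes for replicates, black bars for group means and open symbols at the lower edge for 0 counts. In each row the 3 JMJ6-OE libraries sit above the 3 WT libraries, and Solyc08g066240.3 is the highest row in both genotypes.

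Solyc08g066250.3 was the next in counts. It had 3616, 5314 and 4964 counts in JMJ6-OE, against 42, 32 and 38 counts in WT, or 112, 158 and 184 CPM in JMJ6-OE and 1.42, 0.802 and 0.978 CPM in WT. The fitted log2 fold change was 7.17 ± 0.29, a 144-fold difference. Again replicate 1 was the lowest of the JMJ6-OE libraries and no library of either genotype reached the range of the other.

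Solyc08g066245.1, whose identifier falls between those of the rows just described, had 1671, 2871 and 2832 counts in JMJ6-OE, against 18, 22 and 18 counts in WT. Its levels were 51.8, 85.3 and 105 CPM in JMJ6-OE and 0.609, 0.551 and 0.463 CPM in WT. The fitted log2 fold change was 7.22 ± 0.35, or 149-fold. The log2 fold changes of Solyc08g066240.3, Solyc08g066245.1 and Solyc08g066250.3 lay within 1 SE of each other.

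The outer members had few counts, Solyc08g066260.3 in WT and Solyc08g066220.3 in both genotypes. Solyc08g066260.3 had 144, 156 and 145 counts in JMJ6-OE, against 2, 0 and 0 counts in WT. The ratio of its scaled counts was 259.5, with an exact 95% counting interval of 71.4 to 2149, so its size is poorly fixed by the 2 WT counts. Its fitted log2 fold change was 7.75 ± 0.65 with all libraries and 10.35 without WT replicate 1, which held both of those counts. Without WT replicate 2 it was 7.14 and without WT replicate 3 it was 7.15. Solyc08g066220.3 had 6, 5 and 4 counts in JMJ6-OE and none in WT. Against a floor of 3 counts over the WT libraries together, its scaled ratio was 5.83-fold higher in JMJ6-OE. That ratio leaves out the counting error of the 15 JMJ6-OE counts.

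Of the 5 rows, 4 passed the filter on low counts and Solyc08g066220.3 did not. Solyc08g066260.3 passed through its JMJ6-OE counts alone. By log2 fold change the 4 held rank 15 (Solyc08g066260.3), 21 (Solyc08g066240.3), 24 (Solyc08g066245.1) and 25 (Solyc08g066250.3) among the 20143 tested genes. Since the rows were picked on this contrast, the ranks only place them. The groups did not overlap for any of the 4, where 25.7% of tested genes had all JMJ6-OE libraries above all WT libraries, and nothing is read from this for the same reason.

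Levels per length were compared on the deposited FPKM (fragments scaled by gene length and library size). In JMJ6-OE, Solyc08g066240.3 averaged 671 ± 143 FPKM (SD, n = 3), and its mean held rank 78 among the 24019 rows with FPKM above 0 there. In WT it averaged 4.71 ± 0.984 FPKM and held rank 13521 of 24545. Solyc08g066250.3 averaged 142 ± 26.1 FPKM in JMJ6-OE and 1.15 ± 0.309 FPKM in WT. Solyc08g066245.1 averaged 117 ± 32.6 FPKM in JMJ6-OE and 0.903 ± 0.11 FPKM in WT. The FPKM ranges of these rows overlapped in both genotypes. Within a library, Solyc08g066250.3 was the higher in each JMJ6-OE library, at 113.6 against 81.17, 148.17 against 123.78 and 164.69 against 145.27 FPKM. It was also the higher in WT replicates 1 and 3, while in WT replicate 2 it stood at 0.89 FPKM against 0.94 FPKM for Solyc08g066245.1. Solyc08g066260.3 lay far lower, at 2.22, 2.14 and 2.37 FPKM in JMJ6-OE, against 0.03, 0.00 and 0.00 FPKM in WT. Solyc08g066220.3 was lowest, at 0.15, 0.11 and 0.10 FPKM in JMJ6-OE and listed at 0 in WT.

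Counts and FPKM together imply the length of the gene model that the authors used. The median was 2463 bases for Solyc08g066240.3 and 2008 bases for Solyc08g066260.3, against 988 bases for Solyc08g066250.3 and 639 bases for Solyc08g066245.1. The adjoining rows Solyc08g066245.1 and Solyc08g066250.3, which the table describes in the same words, thus had the shorter models. Rows of near-identical copies may share reads, and the sources used here do not say how the authors' counting placed such reads. The separate values of the 5 rows are therefore uncertain. Moving reads among the 5 rows leaves their sum the same, but dropping such reads or counting them more than once would change that sum. Summed over the 5 rows the level was 1418, 2176 and 2463 CPM in JMJ6-OE and 15.4, 12.4 and 9.81 CPM in WT. Counted as a single feature, the rows had a log2 fold change of 7.34, close to the 7.36 of Solyc08g066240.3 alone.

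The split of the counts between the copies was also compared. It is not independent of how the rows were picked, since a change in the split is the quotient of their fold changes. Of the counts in Solyc08g066240.3 and Solyc08g066245.1 together, Solyc08g066240.3 held 96.0%, 95.8% and 95.4% in JMJ6-OE and 95.6%, 95.2% and 94.8% in WT. The 95% Wilson intervals, which cover counting error only, ran from 95.2% to 96.2% over the JMJ6-OE libraries and from 91.9% to 97.2% over the WT libraries. The mean share was 95.7 ± 0.32% in JMJ6-OE and 95.2 ± 0.43% in WT (SD, n = 3 each). The difference of 0.52 percentage points had a two-sided p of 0.2 in an exact permutation test, where 3 against 3 libraries cannot give less than 0.1. The ranges of the genotypes overlapped. No outcome of this test could have passed a threshold of 0.05, so it shows neither a change in the split nor its absence.

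The shares were also taken over the 5 rows together. Solyc08g066240.3 held 88.1%, 88.6% and 88.0% of their counts in JMJ6-OE, against 86.3%, 89.1% and 85.3% in WT. Solyc08g066250.3 held 7.91%, 7.26% and 7.47% in JMJ6-OE and 9.25%, 6.48% and 9.97% in WT. Solyc08g066245.1 held 3.65%, 3.92% and 4.26% in JMJ6-OE and 3.96%, 4.45% and 4.72% in WT. For each of these rows the WT range overlapped the JMJ6-OE range. Over 6 such comparisons, which included the share of Solyc08g066260.3 and the ratio of Solyc08g066250.3 to Solyc08g066245.1 counts, the exact permutation p ran from 0.2 to 1.0, or from 0.6 to 1.0 after Benjamini-Hochberg adjustment over the 6. The WT shares rest on 381 to 494 counts per library, which limits how small a change in the split could be seen. These tests too could not give a p under 0.1, and they use the contrast on which the rows were picked. They therefore show neither a change in the split nor its absence.

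**Figure D2:**
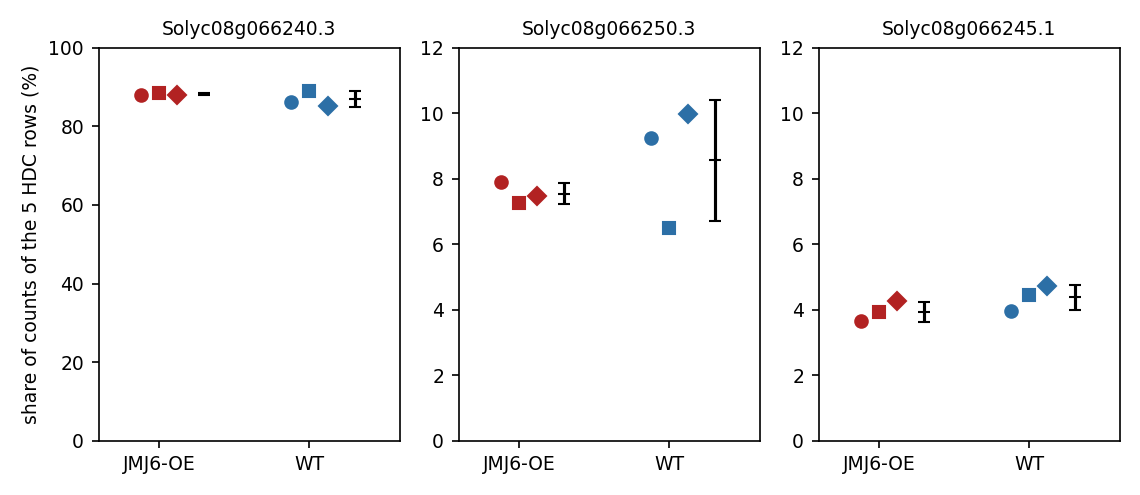
Share of the summed counts of the 5 HDC rows held by Solyc08g066240.3 (axis to 100%), Solyc08g066250.3 and Solyc08g066245.1 (axes to 12%) in each library, JMJ6-OE left of WT, with the mean and SD beside the points. The WT points spread on both sides of or overlap the JMJ6-OE points in each panel, for example 85.3% to 89.1% in WT around 88.0% to 88.6% in JMJ6-OE for Solyc08g066240.3.

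The genes beside the HDC rows showed differences of another size. Within 10 rows on either side there were 21 other rows, 13 with enough counts to test. Of these, 1 rose and 5 fell by edgeR's quasi-likelihood test, against 17.5% and 16.8% of all tested genes, and their median log2 fold change was -0.20, against -0.012 over all genes. Leaving out a library gave 0 to 2 higher and 1 to 4 lower. Just before the HDC rows in identifier order, a receptor-like kinase row (Solyc08g066210.3, described as HSL1) stood at 2.17, 4.46 and 3.67 CPM in JMJ6-OE and 6.19, 5.76 and 11.5 CPM in WT. Its log2 fold change was -1.18 ± 0.36 (adjusted p = 0.039 by edgeR). That call was lost in each fit that left out a library but the one without WT replicate 2, with adjusted p from 0.05 to 0.097. The poly(A) polymerase row next to it (Solyc08g066200.3) stood at 140, 154 and 148 CPM in JMJ6-OE and 145, 149 and 154 CPM in WT, with a log2 fold change of -0.02 ± 0.08 that was not called. Solyc08g066190.2 had 8 counts in 1 WT library and none elsewhere.

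After the HDC rows, Solyc08g066270.2 had 4 counts in 1 WT library and none elsewhere, and Solyc08g066300.2 had none. The transcription elongation gene PAF1 (Solyc08g066290.3), between them, stood at 5.70, 5.94 and 5.19 CPM in JMJ6-OE and 5.82, 5.66 and 5.61 CPM in WT, a log2 fold change of -0.02 ± 0.14 that was not called. The rows 2 away on either side of the HDC rows, Solyc08g066200.3 and Solyc08g066290.3, were thus not called. Solyc08g066210.3, the row directly before the HDC rows, was called lower with all libraries, as given above. The neighbour called with the lowest adjusted p was the endoribonuclease gene YBEY (Solyc08g066180.3), which fell to 8.17 ± 0.722 CPM in JMJ6-OE, against 13.5 ± 0.453 CPM in WT (SD, n = 3, log2 fold change -0.72 ± 0.12, adjusted p = 0.0045).

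The other called neighbours were less firm. An early nodulin-93 row (Solyc08g066160.3) rose by 0.44 ± 0.11 on the log2 scale, with the call lost without replicate 2 or 3 of either genotype (adjusted p from 0.061 to 0.072). A polynucleotide phosphorylase row (Solyc08g066120.3, -0.28 ± 0.08) lost its call when any JMJ6-OE library was left out (adjusted p from 0.053 to 0.098). The receptor kinase rows Solyc08g066310.2 (-1.84 ± 0.54) and Solyc08g066320.3 (-2.70 ± 0.72) lost theirs in most such fits, with adjusted p up to 0.12 and 0.083, and had log2 fold changes of -1.25 and -1.80 without WT replicate 3. Over all 57 tested rows with Solyc08g066 identifiers, HDC rows left out, 6 rose and 12 fell, against 17.5% and 16.8% of all tested genes. The higher count was 3 without WT replicate 2, and the lower count was 3 without JMJ6-OE replicate 2, 5 without JMJ6-OE replicate 3 and 7 without WT replicate 3.

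**Figure D3:**
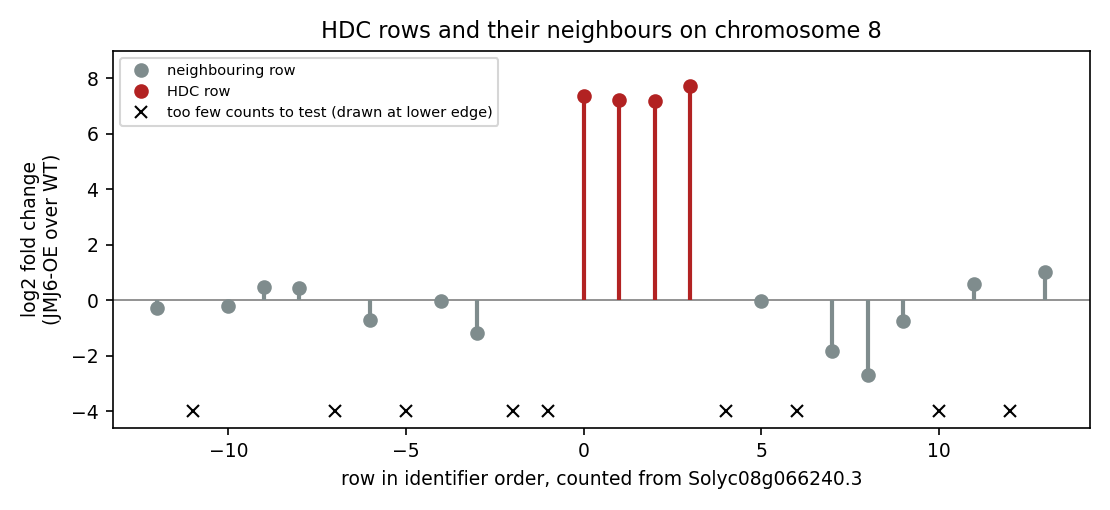
Log2 fold change (JMJ6-OE over WT) of rows in identifier order, counted from Solyc08g066240.3, with HDC rows in red, other rows in grey, and rows too sparse to test as crosses at the lower edge. The 4 tested HDC rows stand at 7.17 to 7.75, and the 13 tested neighbours between -2.70 and 1.01.

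Of the 25 rows of the table that carry the HDC name, 20 lie elsewhere. Among these, 8 form a second block on chromosome 8, with identifiers that begin with Solyc08g068 and 239 rows away from the first. Of the 20, 8 had enough counts to test, and 6 of them, each from the Solyc08g068 block, fell in JMJ6-OE by edgeR's test. None rose, by edgeR, DESeq2 or limma-voom, and the count was also 0 at an unadjusted p under 0.05. The background was 16.8% of all tested genes lower. Solyc08g068620.2, Solyc08g068640.4 and Solyc08g068660.1 passed the filter through their WT counts alone, with 3, 14 and 13 counts in JMJ6-OE. Such rows could hardly be tested unless lower in JMJ6-OE, so the count of 6 is not read against that share. With the filter of 1 CPM in 3 libraries, 4 rows fell. The Solyc08g068 block holds the aromatic amino acid decarboxylases 1A and 1B. Summed over its 8 rows, the level was 15.0, 8.86 and 8.38 CPM in JMJ6-OE, against 69.6, 118 and 199 CPM in WT. The Solyc08g066 rows made up 99.0%, 99.6% and 99.7% of the counts of both blocks together in JMJ6-OE, and 18.1%, 9.51% and 4.70% in WT.

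The row for aromatic amino acid decarboxylase 1B (Solyc08g068610.3) stood at 2.11, 1.66 and 1.15 CPM in JMJ6-OE and 18.4, 26.0 and 46.6 CPM in WT, 18.3-fold lower in JMJ6-OE. Its log2 fold change was -4.20 ± 0.43, with an adjusted p of 0.001. Decarboxylase 1A (Solyc08g068680.3) stood at 2.17, 2.05 and 2.52 CPM in JMJ6-OE and 11.9, 23.0 and 58.1 CPM in WT. Its log2 fold change was -3.79 ± 0.63 (adjusted p = 0.0067), and -3.0 without WT replicate 3. The most abundant row of the block, Solyc08g068600.3, described as histidine decarboxylase-like, stood at 10.2, 5.02 and 4.37 CPM in JMJ6-OE and 37.1, 64.9 and 87.2 CPM in WT (-3.27 ± 0.46, adjusted p = 0.0037). In these rows WT replicate 3 was the highest library, and each JMJ6-OE library lay below each WT library.

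The smaller rows of the block were also lower in JMJ6-OE. Solyc08g068660.1, Solyc08g068640.4 and Solyc08g068620.2 passed the filter through their WT counts alone, so nothing is read from their calls. Solyc08g068660.1, also described as decarboxylase 1B, fell to 0.143 ± 0.037 CPM in JMJ6-OE, against 0.666 ± 0.171 CPM in WT (log2 fold change -2.22 ± 0.46, adjusted p = 0.0098). Solyc08g068640.4, a decarboxylase family row named here after its values were seen, changed by -3.94 ± 0.85 on the log2 scale (adjusted p = 0.012, and 0.05 without JMJ6-OE replicate 3). Solyc08g068620.2 was called (adjusted p = 0.0095) on 3 counts in JMJ6-OE and 82 in WT, a scaled ratio of 23.4-fold lower with an exact 95% counting interval of 7.74 to 116. Solyc08g068630.3 and Solyc08g068670.3 had no counts in JMJ6-OE and 53 and 11 in WT, and were not tested. The copies of this block may share reads as well. Outside both blocks, the tested rows Solyc08g006740.3 (aromatic amino acid decarboxylase 2) and Solyc08g006750.3 were not called, with log2 fold changes of -1.05 ± 0.66 and -1.13 ± 1.16.

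**Figure D4:**
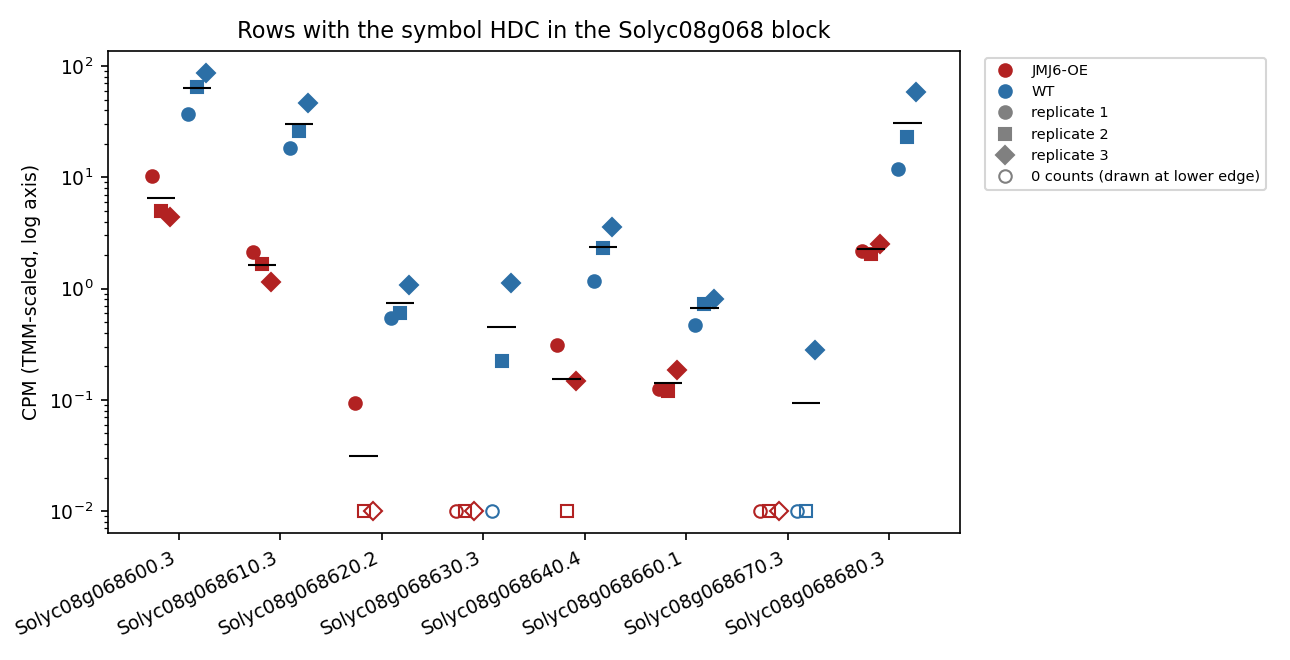
CPM of the 8 rows with the symbol HDC in the Solyc08g068 block, on a log axis, JMJ6-OE in red left of WT in blue, with marker shapes for replicates, black bars for group means and open symbols at the lower edge for 0 counts. In the 6 rows that passed the filter the JMJ6-OE libraries lie below the WT libraries, for example 1.15 to 2.11 against 18.4 to 46.6 CPM for Solyc08g068610.3.

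Histidine, the substrate that the name of the HDC genes implies, is made in the plastid by a chain of enzymes. Of 7 rows for these enzymes, all tested, 3 rose, none fell and 4 did not pass, with a median log2 fold change of 0.30 and a background of 17.5% higher and 16.8% lower. DESeq2 called 4 higher, with the bifunctional synthesis enzyme HISN2 (Solyc10g005930.2) added at an adjusted p of 0.045, against 0.068 by edgeR. None fell by DESeq2 or limma-voom either, and the count lower was 0 also at an unadjusted p under 0.05. Imidazole glycerol phosphate synthase (HISN4, Solyc07g064810.3) averaged 79.8 ± 2.06 CPM in JMJ6-OE and 64.6 ± 3.85 CPM in WT (log2 fold change 0.31 ± 0.08, adjusted p = 0.022 by edgeR's quasi-likelihood test). Histidinol-phosphate aminotransferase (HPA, Solyc04g009350.3) averaged 56.2 ± 4.18 CPM in JMJ6-OE and 45.7 ± 0.421 CPM in WT (0.30 ± 0.08, adjusted p = 0.031). Imidazoleglycerol-phosphate dehydratase (HIS3, Solyc09g076020.3) averaged 50.7 ± 8.59 CPM in JMJ6-OE and 37.4 ± 1.98 CPM in WT (0.44 ± 0.13, adjusted p = 0.039). These increases were 1.24-fold, 1.23-fold and 1.35-fold, and none of these edgeR calls held in more than 2 of 6 fits with a library removed. The adjusted p then reached 0.099, 0.11 and 0.13, and in the fit without WT replicate 3 none of the 3 held (0.099, 0.11 and 0.096).

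The table's own histidine metabolism pathway had 28 rows once any rows with the HDC name were left out. Of these, 20 were tested, 5 rose and 3 fell by edgeR (median log2 fold change 0.17). These shares were near the 17.5% higher and 16.8% lower of all tested genes. The higher count was 1 to 3 when WT replicate 1, 2 or 3 or JMJ6-OE replicate 2 or 3 was left out. Serine decarboxylase (SDC, Solyc04g071140.3), the only decarboxylase row left in this list, stood at 122, 144 and 126 CPM in JMJ6-OE and 292, 208 and 231 CPM in WT (-0.90 ± 0.14, adjusted p = 0.0037 by edgeR). The other leading rows were aldehyde dehydrogenases, which oxidise the aldehydes that arise from amines. ALDH7B4 (Solyc03g122310.3) rose to 287 ± 36.5 CPM in JMJ6-OE, against 181 ± 4.99 CPM in WT (adjusted p = 0.0048). ALDH2B4 (Solyc03g114150.3) fell to 93.2 ± 29.1 CPM in JMJ6-OE, against 222 ± 44.5 CPM in WT (adjusted p = 0.009), and ALDH3H1 (Solyc06g060250.3) to 40.0 ± 1.57 CPM in JMJ6-OE, against 59.0 ± 7.53 CPM in WT (adjusted p = 0.0074). A sparse ALDH2B7 row (Solyc08g007890.3) rose to 2.18 ± 0.624 CPM in JMJ6-OE, against 0.154 ± 0.171 CPM in WT (log2 fold change 3.87 ± 0.82, adjusted p = 0.011). That call was lost without WT replicate 2 (0.056), and the log2 fold change was 4.98 without WT replicate 1 and 3.22 without WT replicate 3. The row passed the filter on low counts through its JMJ6-OE counts, so nothing is read from its call.

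Of 34 rows for other amino acid decarboxylases, 18 were tested, 2 rose and 4 fell (median log2 fold change -0.12), against 17.5% and 16.8% of all tested genes and again near those shares, with 2 lower without JMJ6-OE replicate 2 or any of the WT replicates. Those that rose are both described as S-adenosylmethionine decarboxylase, which feeds the polyamines spermidine and spermine. Solyc05g010420.2 stood at 2075, 2949.7 and 3276 CPM in JMJ6-OE and 672, 758 and 834 CPM in WT (log2 fold change 1.87 ± 0.20, adjusted p = 8.3e-04), and its neighbour by identifier Solyc05g010423.1 rose by 1.89 ± 0.17 (adjusted p = 3.9e-04). They may share reads. Serine decarboxylase, given above, an arginine decarboxylase (ADC2, Solyc10g054440.2) and 2 glutamate decarboxylases fell. ADC2 stood at 26.8, 26.6 and 17.1 CPM in JMJ6-OE and 72.6, 95.3 and 208 CPM in WT (-2.41 ± 0.44, adjusted p = 0.0092), with WT replicate 3 again the highest library. A glutamate decarboxylase (GAD4, Solyc01g005000.3, -0.58 ± 0.18, adjusted p = 0.039) kept its call only when the omitted library was JMJ6-OE replicate 1, with adjusted p up to 0.11 for the 5 others.

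**Figure D5:**
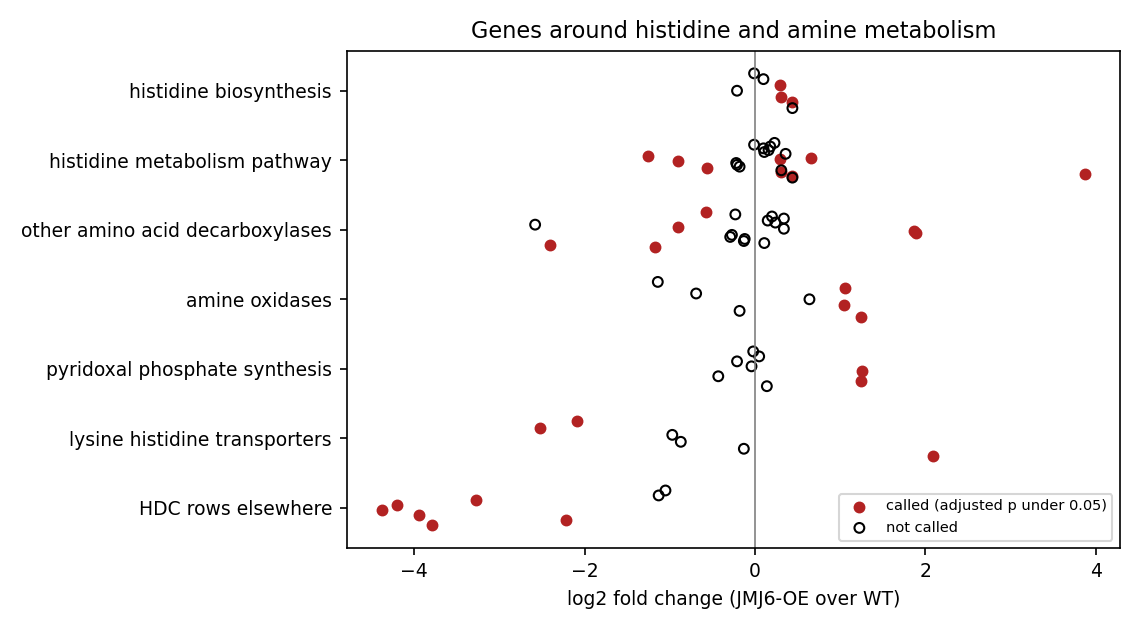
Log2 fold change (JMJ6-OE over WT) of each tested row, grouped by list, with filled red points for rows called by edgeR at an adjusted p of 0.05 and open points for the others. The HDC rows outside Solyc08g066 lie at negative values, down to -4.38, while the histidine synthesis rows lie between -0.21 and 0.44.

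Amine oxidases break down amines such as polyamines. Of 15 such rows, 7 were tested, 3 rose and none fell (median log2 fold change 0.64), against 17.5% and 16.8% of all tested genes, and the 3 are described as polyamine oxidases. The count lower was 0 also by DESeq2, by limma-voom and at an unadjusted p under 0.05, and 1 without JMJ6-OE replicate 1 or WT replicate 1. PAO2 (Solyc12g006370.3) rose to 59.6 ± 11.6 CPM in JMJ6-OE, against 25.3 ± 3.79 CPM in WT (1.24 ± 0.17, adjusted p = 0.0023 by edgeR). A second PAO2 row (Solyc07g043590.3, 1.04 ± 0.17, adjusted p = 0.0047) and PAO4 (Solyc02g081390.3, 1.06 ± 0.19, adjusted p = 0.0062) rose as well, and the 3 calls held in each fit that left out a library. Among 8 rows for the synthesis of the cofactor pyridoxal phosphate, 2 rose and none fell (median log2 fold change 0.01), with the 2 higher near the background of 17.5%. Lower rows numbered 0 by DESeq2 and limma-voom too, 2 at an unadjusted p under 0.05, and 1 without JMJ6-OE replicate 1. PDX1 (Solyc06g081980.1), a subunit of the synthase, stood at 192, 255 and 317 CPM in JMJ6-OE and 106, 106 and 109 CPM in WT (1.25 ± 0.17, adjusted p = 0.0021). The PDX1-like row PDX1.2 (Solyc03g120090.1) rose to 54.1 ± 10.1 CPM in JMJ6-OE, against 22.6 ± 1.33 CPM in WT (1.26 ± 0.14, adjusted p = 0.001). Both calls held when any 1 library was left out.

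Lysine histidine transporters move amino acids, histidine among them, into cells. Of 13 rows, 6 were tested, 1 rose and 2 fell (median log2 fold change -0.92), against 17.5% and 16.8% of all tested genes, with 1 lower without JMJ6-OE replicate 2 or 3. Solyc01g111980.3, described as transporter-like 8, fell to 39.7 ± 5.10 CPM in JMJ6-OE, against 169.7 ± 58.5 CPM in WT (-2.09 ± 0.26, adjusted p = 0.0018 by edgeR). LHT1 (Solyc02g093860.3) stood at 3.60, 5.62 and 3.74 CPM in JMJ6-OE and 8.28, 15.7 and 50.6 CPM in WT (-2.52 ± 0.70, adjusted p = 0.036). Its log2 fold change was -1.51 without WT replicate 3, and the call was lost without JMJ6-OE replicate 1, 2 or 3 (adjusted p from 0.084 to 0.12). Solyc10g055740.2 rose by 2.09 ± 0.55 at 0.676 ± 0.36 CPM in JMJ6-OE, against 0.155 ± 0.044 CPM in WT (adjusted p = 0.023 by edgeR). That call was kept when JMJ6-OE replicate 3 was omitted and lost for any other library (0.054 to 0.089). The row passed the filter on low counts through its JMJ6-OE counts alone, so nothing is read from its call. The transporters Solyc04g079560.3 (-0.97 ± 0.43), Solyc04g082220.2 (-0.87 ± 0.50) and Solyc05g009700.3 (-0.13 ± 0.26) were not called by edgeR with all libraries. DESeq2 called Solyc04g079560.3 lower (adjusted p = 0.039), which gave 3 lower transporters. In edgeR, leaving out JMJ6-OE replicate 1 brought a call for Solyc04g079560.3 (adjusted p = 0.0025), and leaving out WT replicate 1 brought one for Solyc04g082220.2 (adjusted p = 0.046).

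To see which transcripts had the pattern most like that of Solyc08g066240.3, the log2 profiles of 10532 genes over the 6 libraries, each centred on its own mean, were compared with it by their root mean square difference. The nearest were its own neighbours Solyc08g066245.1 (0.232) and Solyc08g066250.3 (0.251). Next came chalcone synthase CHS1B (Solyc09g091510.3, 0.389), which starts flavonoid synthesis, an ELO-type fatty acid elongation row (Solyc01g104210.2, 0.422) and polygalacturonase-2 (PG2, Solyc10g080210.2, 0.449), which degrades pectin. CHS1B stood at 238, 444 and 299.6 CPM in JMJ6-OE and 1.59, 1.80 and 2.21 CPM in WT. The libraries form 2 separate groups and the profiles are led by the step between them, so this likeness is a description. Pearson's r with Solyc08g066240.3 was above 0.95 for 1149 of these genes.

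The HDC rows differed alongside genes that mark the ripening stage of the fruit. Of 6 such genes, 6 were called higher by edgeR, against 17.5% of all tested genes. Their summed levels were 14886 to 24892 CPM in JMJ6-OE and 986 to 1567 CPM in WT. The ripening regulator RIN (Solyc05g012020.3) stood at 293, 512 and 582 CPM in JMJ6-OE and 22.4, 61.1 and 49.2 CPM in WT. Phytoene synthase PSY1 (Solyc03g031860.3), the entry enzyme of carotenoid synthesis, stood at 3622, 5545 and 6469 CPM in JMJ6-OE and 289, 508 and 434 CPM in WT. The ethylene synthesis gene ACS2 (Solyc01g095080.3) stood at 197, 332 and 406 CPM in JMJ6-OE and 5.65, 7.37 and 12.5 CPM in WT. In JMJ6-OE, RIN, PSY1 and ACS2 were lowest in replicate 1 and highest in replicate 3, as Solyc08g066240.3 was. In WT, RIN, PSY1 and ACS2 were lowest in replicate 1, where Solyc08g066240.3 was highest. PG2 had another order, at 4063, 5102 and 3869 CPM in JMJ6-OE and 48.8, 48.5 and 36.4 CPM in WT. In WT it was highest in replicate 1 and lowest in replicate 3, as Solyc08g066240.3 was. Ripening stage was read only from these transcripts, and with both genotypes at the same age it cannot be told apart from the genotype.

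Markers of other tissues of the fruit were also set beside the HDC rows. The 28 seed rows (oleosins and storage proteins) summed to 31.9 to 69.2 CPM in JMJ6-OE and 10.4 to 14.6 CPM in WT, with 1 of 5 tested rows higher and 10 rows at 0 in every library. The higher row was an oleosin 1-like gene (Solyc06g060840.1), and without it the seed sum was 5.91 to 7.23 CPM in JMJ6-OE and 6.0 to 7.22 CPM in WT. The rows for oleosin 1 (Solyc06g034040.1), another oleosin (Solyc03g112440.1) and an 11S globulin (Solyc09g072560.3) were at 0 in every library. The 17 phloem rows summed to 68.6 to 89.6 CPM in JMJ6-OE and 56.6 to 69.3 CPM in WT. Of these, 5 of 11 tested rows were higher and 3 lower, with 2 rows at 0 in every library. Solyc12g096880.2 (3 counts in JMJ6-OE, 113 in WT) and Solyc12g096890.1 (8 and 81) passed the filter through their WT counts alone. Such rows could hardly be tested unless lower, so the count of 3 lower is not read against the share over all genes. The 3 cuticle rows summed to 76.6 to 91.8 CPM in JMJ6-OE and 74.0 to 102 CPM in WT, with 1 of 2 tested rows lower and none at 0. Over all tested genes, edgeR called 17.5% higher and 16.8% lower. The phloem calls of Solyc05g013870.3 and Solyc05g013860.3 (higher) and Solyc12g096890.1 (lower) were lost in most fits that left out a library. Their adjusted p by edgeR then reached 0.16, 0.13 and 0.11. The part of other tissues in the HDC difference was not tested.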

How the data were processed

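RNA-seq was analysed for 3 JMJ6-OE and 3 WT pericarp libraries. The deposited table gives counts per gene, which the authors made from reads aligned with HISAT2, per the submitters' processing notes. The sources used here do not give the aligner version, genome build, counter, strandedness or handling of reads that match several copies. The FPKM values are the authors' own and were used as deposited. The p-values and FDR in the authors' deposited table were not used.

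Counts were tested in R 4.3.3 with edgeR 4.0.16 (TMM scaling, filterByExpr with a minimum count of 10, robust quasi-likelihood test), and p-values were adjusted by Benjamini-Hochberg over 20143 tested genes, with a threshold of 0.05. Log2 fold changes are JMJ6-OE over WT from the deposited counts, and their SE was taken from the F statistic. CPM uses the TMM-scaled library size. Library totals ran from 28539410 to 36487547 counts. Shares of counts were compared by exact permutation over libraries (scipy 1.17.1), with 95% Wilson intervals. Ratios of low counts have exact 95% intervals. Intervals cover counting error only, and a ratio against a floor leaves out the counting error of the other genotype.

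Likeness used log2(CPM + 0.1) profiles, for genes averaging 10 CPM or more. The members and gene lists were chosen with earlier results of these data known. The genes named were all 5 members, all tested rows of a list with 6 or fewer and otherwise up to 5 called rows by adjusted p, the 3 rows nearest on either side, the 5 most alike genes with an informative description, and RIN, PG2, PSY1 and ACS2. Alternatives were upper-quartile and RLE scaling, DESeq2 1.42.0, limma-voom (limma 3.58.1), no filter, a filter of 1 CPM in 3 libraries, FPKM, summed HDC rows, a replicate block and leaving out each library. The test across genes was checked on simulated data. Replicate libraries differed beyond counting noise (chi-square per gene from 20.1 to 75.9).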

Additional observations from a re-analysis of the deposited data

How the results depend on the processing

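The log2 fold changes of Solyc08g066240.3, Solyc08g066245.1 and Solyc08g066250.3 kept their direction under every alternative, and ran from 7.16 to 7.56, 6.99 to 7.46 and 6.96 to 7.37 when each library was left out. That of Solyc08g066260.3 ran from 7.14 to 10.35. The difference in the share of Solyc08g066240.3 ran from 0.296 to 0.725 percentage points. Genes called numbered 2027 to 4169 higher and 2046 to 3962 lower without 1 library. In the lists these ranges were 0 to 4 higher for histidine synthesis, 1 to 6 higher for the histidine pathway, 2 to 3 higher and 2 to 4 lower for other decarboxylases, 0 to 1 lower for amine oxidases and for pyridoxal phosphate synthesis, 0 to 1 higher and 1 to 3 lower for transporters, 5 to 6 lower for HDC rows elsewhere, 0 to 2 higher and 1 to 4 lower for neighbours, and 3 to 9 higher and 3 to 10 lower for all Solyc08g066 rows. The cause of these changes was not tested, beyond the smaller number of samples.

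Other settings moved few counts. Amine oxidases had 1 lower row with no filter, and pyridoxal phosphate synthesis had 1 with upper-quartile scaling. Transporters had 0 higher with a filter of 1 CPM in 3 libraries and 1 lower with limma-voom or no filter. Neighbours had 2 higher with DESeq2, and 3 lower with limma-voom or the filter of 1 CPM in 3 libraries. The cause was not tested. Of 593 values for 46 named genes, 529 kept their direction and side of the threshold, 58 lost a call, 3 gained one and 3 that were not called changed sign. The last were Solyc05g009700.3 (-0.38 to 0.03 over the libraries left out, positive without JMJ6-OE replicate 1), Solyc08g066200.3 (-0.08 to 0.02, positive without JMJ6-OE replicate 1) and Solyc08g066290.3 (-0.07 to 0.03, positive without JMJ6-OE replicate 3).

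The labels do not say whether the replicate numbers pair the libraries. Deviations of same-numbered libraries correlated at 0.064, 0.032 and -0.06, and those of differently numbered libraries from -0.11 to 0.086. This does not settle whether the numbers pair the libraries. With a replicate block the members' log2 fold changes were 7.34 (Solyc08g066240.3), 7.20 (Solyc08g066245.1), 7.15 (Solyc08g066250.3) and 7.75 (Solyc08g066260.3), transporters had 0 higher and 1 lower, and neighbours had 2 higher. The block ended the calls of HISN4 (adjusted p = 0.053), HPA (0.063), LHT1 (0.07), Solyc10g055740.2 (0.059) and Solyc08g066120.3 (0.075), and brought one for HISN2 (0.045), by edgeR. The share difference in the block had an exact permutation p of 0.25, the smallest that 3 pairs allow. No outcome of this test could have passed a threshold of 0.05, and it uses the contrast on which the rows were picked. It therefore shows neither a change in the split nor its absence. WT counts of the HDC rows, 381 to 494 per library, also limit how small a shift in their split could be seen.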
